A study of Mus musculus with 25 samples.

Results

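MAP kinase phosphatases are the enzymes that switch MAP kinases off, and the genes described here are 7 of them (Dusp1, Dusp2, Dusp4, Dusp5, Dusp6, Dusp10 and Dusp16) together with 2 genes tied to feedback on the ERK branch (Spry2 and Etv5). They were taken by symbol: every probe set that the array's annotation assigns to 1 of these 9 symbols was used, which gave 14 probe sets of 45037 tested and 9 genes of 18193. RAW 264.7 cells, a mouse macrophage line transformed by a leukaemia virus, had received hypochlorous acid (HOCl) in their serum-containing culture medium at 3 lower doses (0.14, 0.35 and 0.7 mM) or 4 higher ones (1.4 and 2.1 mM, then 2.8 and 3.5 mM) or had received none, and RNA was taken after 6 h. HOCl is the bleaching oxidant that neutrophils make from hydrogen peroxide and chloride. The 25 Affymetrix mouse whole-genome arrays comprise 4 of untreated cells (0 mM) and 3 of each of the 7 doses, and all groups are the same line with no other agent named in the labels.

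ERK, JNK and p38 are the main MAP kinases, and each is active only while a threonine and a tyrosine of its activation loop carry phosphate. Dual specificity phosphatases remove both, and many of their genes are themselves induced by the kinases that the enzymes then silence. In macrophages this loop limits the inflammatory response, and Dusp1 in particular restrains p38 and JNK after a microbial stimulus. Spry2 blocks growth factor receptor signalling towards Ras, while Etv5 is an ETS family transcription factor whose transcript follows ERK activity in many tissues.

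The inducible phosphatase genes Dusp1, Dusp2 and Dusp5 were higher at 2.8 mM than in untreated cells, whereas Etv5, by the brightest of its 3 probe sets, was lower than untreated at every dose from 0.35 mM upward. At 2.8 mM Dusp2 was 5.37-fold (log2 2.43, SE 0.284), Dusp5 4.14-fold (2.05, SE 0.628) and Dusp1 3.71-fold higher (1.89, SE 0.605). Etv5 was 3.48-fold lower at 2.1 mM (-1.80, SE 0.207). The Dusp1 call was lost when any of 17 of the 25 arrays was left out. In a fit of the 0 and 2.8 mM arrays alone, Dusp1 and Dusp5 were not called. None of these 3 rises, nor this fall of Etv5, was called once a technical level that follows dose, described below, was a term. From 2.8 to 3.5 mM 4 of the 9 genes fell, against 5.66% of all probe sets, Dusp2 by 7.05-fold, Dusp5 by 6.66-fold, Dusp16 by 2.70-fold and Dusp4 by 2.41-fold. Spry2 was below the median of the array on every array and did not pass any test.

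The promoters of the 3 genes that were higher at 2.8 mM are shown because they hold matches to some of the 8 binding motifs that were searched. The sequences are the 250 bases before the annotated start, from RefSeq on GRCm38.p6, written 5′ to 3′ along the gene, with motif matches in capitals. The Dusp1 window is chr17:26508473-26508722 on the minus strand, that of Dusp2 is chr2:127335909-127336158 on the plus strand, and that of Dusp5 is chr19:53528895-53529144 on the plus strand.
Dusp1: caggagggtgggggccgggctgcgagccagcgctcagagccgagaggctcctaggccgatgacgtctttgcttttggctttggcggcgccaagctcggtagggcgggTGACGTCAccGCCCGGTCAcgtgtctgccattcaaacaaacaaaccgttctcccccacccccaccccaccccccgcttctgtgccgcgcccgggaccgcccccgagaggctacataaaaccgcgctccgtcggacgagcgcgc
Dusp2: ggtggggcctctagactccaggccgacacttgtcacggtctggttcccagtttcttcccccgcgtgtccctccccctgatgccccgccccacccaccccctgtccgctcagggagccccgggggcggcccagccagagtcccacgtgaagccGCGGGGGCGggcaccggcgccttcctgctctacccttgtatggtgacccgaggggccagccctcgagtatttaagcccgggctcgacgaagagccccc
Dusp5: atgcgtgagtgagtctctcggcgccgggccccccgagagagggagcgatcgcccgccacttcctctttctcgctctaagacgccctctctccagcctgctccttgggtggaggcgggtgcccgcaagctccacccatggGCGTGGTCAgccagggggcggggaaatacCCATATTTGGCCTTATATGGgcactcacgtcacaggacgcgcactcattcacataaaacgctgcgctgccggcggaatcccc
The Dusp1 window holds a cyclic AMP response element (CRE, TGACGTCA) 143 to 136 bases before the start and, 133 to 125 bases before it on the opposite strand, a match to the core of the antioxidant response element (TGACNNNGC). In Dusp2 the capitals mark an Egr site (GCGNGGGCG) 98 to 90 bases before the start. In Dusp5 they mark an antioxidant response element core on the opposite strand, 111 to 103 bases before the start, and a pair of adjoining CArG boxes, the element bound by serum response factor, at 82 to 73 and 72 to 63 bases.

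These letters were searched on both strands of 9 promoters of 8 of the genes, 2 of them of Etv5, and of 32851 mouse promoters in all. Among all promoters a CRE was present in 1.55%, an antioxidant response element core in 10.2%, an Egr site in 4.7% and a CArG box in 1.47%. These shares were not adjusted for base content. The Dusp1, Dusp2 and Dusp5 windows held 68.4, 70.4 and 64% G and C, against a median of 52.4% over all promoters. They held 28, 19 and 21 CG pairs, against a median of 6. At least 2 CArG boxes, as in Dusp5, were present in 6 promoters, or 0.0183%. A further Egr match lay in the Dusp16 window on the opposite strand, 138 to 130 bases before the start. No window of the 9 held an AP-1 site (TGANTCA, 6.75% of all promoters), an ATF4 site (TGATGCAA, 0.791%), an ETS site (CCGGAAGT, 2.88%) or a kB site (7.25%), which says only that these letters are not in these windows. CRE, AP-1 and antioxidant cores begin with the same 3 letters, so 1 stretch can match several of them, but none of the matches named here overlap. A match describes the sequence and was not tested as a site, and Dusp4 was not matched.

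Values are log2 signals on a scale whose median is 0 on each array, so a positive value lies above the middle probe set of that array. Base 2 was inferred, as the labels do not state it, and every fold rests on that inference. Levels are compared between doses of the same probe set and not between genes. The number of arrays limits the precision, and the labels call the replicates biological. Changes are differences of dose means with the standard error (SE) of a limma fit to all 25 arrays, and a change was called at a Benjamini-Hochberg adjusted p under 0.05 over all 45037 probe sets.

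The arrays carry macrophage transcripts at high levels, with mean log2 signals of 8.18 for Lyz2, 7.68 for Cd14, 7.52 for Csf1r and 6.80 for Cd68, although Mertk was at -1.08. By the F test 4 of 10 macrophage markers changed with dose. Of the markers of other cells, 0 of 4 T cell, 2 of 4 B cell, 0 of 5 fibroblast and 0 of 5 epithelial genes changed. Among 5 neutrophil genes 2 changed, and the mean of the 5 ranged from -0.51 to -0.10 at 0 mM, from 0.49 to 0.69 at 0.35 mM and from -0.28 to -0.09 at 3.5 mM. S100a8 alone spanned -0.55 to 4.18 over the arrays, while S100a9 had a mean of -0.94 and Mpo of -0.66, and the part of these transcripts in the results was not tested. A technical measure also follows dose. Bacillus transcripts serve as poly-A spike controls on this array, and the mean of the 8 probe sets at their 5′ ends, called the spike level here, was at most 1.12 on 11 arrays and at least 1.75 on the other 14. The lower level comprises the arrays at 0 and 0.14 mM with replicates 1 and 2 at 0.35 and 0.7 mM. The higher one comprises replicate 3 at those 2 doses and the arrays from 1.4 mM up. Hence no dose from 1.4 mM upward has an array at the level of the untreated ones, and dose and spike level cannot be told apart in those comparisons except through the 6 arrays at 0.35 and 0.7 mM.

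By the F test over 7 doses 8 of the 9 genes changed, Spry2 being the exception, while 24.7% of all probe sets passed that test. Genes are counted here by their brightest probe set, whereas such shares cover every probe set tested, dim ones included. The lowest adjusted p were those of Dusp2 (3.61e-05) and Etv5 (5.42e-05), and Dusp6 (0.045) was nearest to the threshold. At 0.35 mM 1 gene was called, which was lower, as were 4.72% of all probe sets, and at 0.7 mM again 1 was lower, against 0.0133%. At 1.4 mM 1 was higher and 1 lower, against backgrounds of 4.39% and 3.43%. At 2.1 mM 2 were higher and 1 lower (7.26% and 6.09%). At 2.8 mM 3 were higher and 1 lower (5.64% and 6.26%), and at 3.5 mM 3 were lower (5.4%) and 0 higher. At 0.14 mM limma called 0 of the 9 genes and 0.00444% of probe sets in either direction. An unadjusted p under 0.05 was reached by 2 of the 9 and by 4009 of all probe sets.

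**Figure D1:**
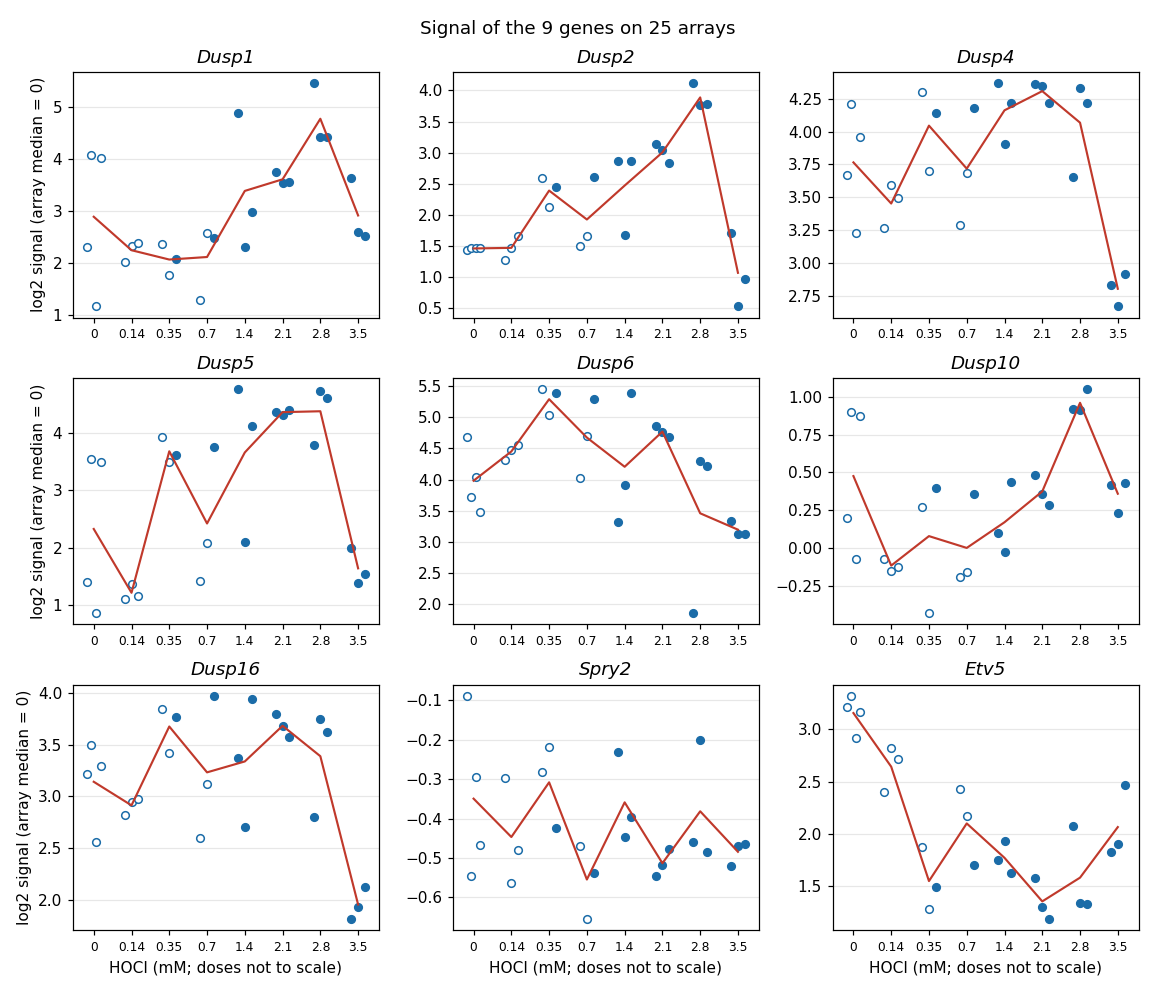
Log2 signal (vertical axis, array median 0) of the brightest probe set of each of the 9 genes on every array, by HOCl dose in mM (horizontal axis, not to scale). Each circle is 1 array, open for the low and filled for the high spike level, and the red line joins dose means. Dusp2 reaches 3.77 to 4.12 at 2.8 mM and is at 0.53 to 1.72 at 3.5 mM, and Etv5 is at 2.92 to 3.32 at 0 mM and below that at every dose.

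Dusp1, the immediate early phosphatase that acts on p38 and JNK and also on ERK, had untreated signals of 2.30, 4.08, 1.16 and 4.03. It read 2.02, 2.32 and 2.40 at 0.14 mM, 2.36, 1.77 and 2.07 at 0.35 mM, and 1.29, 2.58 and 2.48 at 0.7 mM. From 1.4 mM it read 4.89, 2.30 and 2.98, then 3.75, 3.54 and 3.55 at 2.1 mM, 5.47, 4.44 and 4.44 at 2.8 mM and 3.63, 2.60 and 2.52 at 3.5 mM. The 2.8 mM arrays were thus above all arrays of every dose except 1.4 mM, whose replicate 1 lay among them, and the untreated arrays fell into a high pair (replicates 2 and 4) and a low pair. Against 0 mM the change at 2.8 mM was 1.89 (SE 0.605, adjusted p = 0.0466), and it lost the threshold when any of 17 of the 25 arrays was left out, among them replicates 1 and 3 of 0 mM and all 3 of 2.8 mM, with an adjusted p of up to 0.157. Against 0.14 mM, where the arrays differ little, it was 2.54 (SE 0.647, adjusted p = 0.0147), and this call was lost without replicate 1 of 0.14 mM or of 2.8 mM (adjusted p of up to 0.0552). With spike level as a term the change from 0 mM was 1.61 (adjusted p = 0.42), in a fit of the 2 doses alone its adjusted p was 0.197, and with gene-by-gene array weights it was 0.78 (0.172).

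Dusp2 encodes a nuclear phosphatase found mainly in blood cells. Its 4 untreated signals were 1.44, 1.48, 1.46 and 1.48, the narrowest spread of any group for this gene (SD 0.0185, n = 4). Signals were 1.27, 1.47 and 1.67 at 0.14 mM, 2.60, 2.14 and 2.44 at 0.35 mM and 1.51, 1.67 and 2.61 at 0.7 mM. They were 2.87, 1.68 and 2.87 at 1.4 mM, 3.15, 3.04 and 2.83 at 2.1 mM, 4.12, 3.77 and 3.78 at 2.8 mM and 1.72, 0.53 and 0.97 at 3.5 mM. All arrays of all doses from 0.35 to 2.8 mM exceeded all untreated arrays. The changes from 0 mM were 1.01 at 1.4 mM (adjusted p = 0.0343), 1.54 at 2.1 mM (0.0017) and 2.43 at 2.8 mM (8.39e-05), each with an SE of 0.284. The call at 1.4 mM was lost without any of replicates 1, 2 or 4 of 0 mM or replicates 1 or 3 of 1.4 mM (adjusted p of up to 0.157), and those at 2.1 and 2.8 mM were kept in all 25 omissions.

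At 0.35 mM the change of Dusp2, 0.93 (SE 0.284), had an adjusted p of 0.055. There the comparison can be made within the low spike level, where the change was 0.90 and the adjusted p 0.0111. With spike level as a term the changes of Dusp2 at 1.4, 2.1 and 2.8 mM were 0.46, 1.00 and 1.88, with adjusted p of 0.77, 0.344 and 0.0526. The call at 1.4 mM was also lost in a fit of the arrays of 0 and 1.4 mM alone (adjusted p = 0.114) and with a replicate block (0.0562). The block fit leaves out replicate 4 of 0 mM, and that omission alone also lost the call.

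Dusp4, a nuclear phosphatase related to Dusp1, varied less. Untreated signals were 3.67, 4.21, 3.23 and 3.96, and the arrays from 0.14 to 2.8 mM lay between 3.27 and 4.37. At 3.5 mM the signals were 2.83, 2.67 and 2.91, below every other array. The difference from 0 mM was -0.96, or 1.95-fold lower (SE 0.222, adjusted p = 0.00866), and the call was kept in all 25 omissions and with spike level as a term (-1.38, adjusted p = 0.0136). In a fit of the 0 and 3.5 mM arrays alone the adjusted p was 0.0584. Against 0.14 mM Dusp4 was also higher at 2.1 mM (0.86, SE 0.237, adjusted p = 0.0226), a call lost without any of 5 arrays, which were replicates 1 and 3 of 0.14 mM and all 3 of 2.1 mM (adjusted p of up to 0.0983).

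Dusp5 is a nuclear phosphatase specific to ERK, and ERK activity induces its gene. Untreated signals were 1.41, 3.54, 0.87 and 3.49, followed by 1.12, 1.37 and 1.17 at 0.14 mM, 3.92, 3.50 and 3.62 at 0.35 mM and 1.43, 2.08 and 3.76 at 0.7 mM. At the higher doses they were 4.76, 2.09 and 4.13 (1.4 mM), 4.37, 4.32 and 4.40 (2.1 mM), 3.79, 4.73 and 4.61 (2.8 mM) and 2.00, 1.38 and 1.54 (3.5 mM). Every array read either at most 2.09 or at least 3.49, and 0, 0.7 and 1.4 mM hold arrays of both kinds. Changes from 0 mM were 2.03 at 2.1 mM (adjusted p = 0.0364) and 2.05 at 2.8 mM (adjusted p = 0.0382), both with an SE of 0.628. The first was lost in 5 of 25 omissions, namely replicates 1 and 3 of 0 mM and each array of 2.1 mM (adjusted p of up to 0.0994). The second was lost without replicate 1 or 3 of 0 mM or replicate 2 or 3 of 2.8 mM (up to 0.148). Fits of the 2 doses compared alone ended both calls, with adjusted p of 0.0872 and 0.155.

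Dusp5 had its lowest dose mean at 0.14 mM. Against that dose its changes were larger, at 2.44 for 1.4 mM (adjusted p = 0.0317), 3.15 for 2.1 mM (0.00471) and 3.16 for 2.8 mM (0.00445), with an SE of 0.671. Those at 2.1 and 2.8 mM were kept in all 25 omissions, and that at 1.4 mM was lost without any array of 0.14 mM or replicates 1 or 3 of 1.4 mM (adjusted p of up to 0.148). The 1.4 mM difference was 1.89 without its replicate 1 and 3.23 without its replicate 2. With spike level as a term the changes of Dusp5 from 0 mM were 1.08 at 2.1 mM and 1.10 at 2.8 mM, with adjusted p of 0.663 and 0.594. The comparisons with 0.14 mM were not fitted with that term.

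Dusp6, the cytoplasmic phosphatase specific to ERK, had its highest mean at 0.35 mM. Untreated signals were 4.69, 3.71, 4.04 and 3.48, then 4.32, 4.48 and 4.55 at 0.14 mM, 5.45, 5.04 and 5.39 at 0.35 mM and 4.02, 4.70 and 5.30 at 0.7 mM. They were 3.31, 3.91 and 5.39 at 1.4 mM, 4.87, 4.76 and 4.69 at 2.1 mM, 1.85, 4.30 and 4.21 at 2.8 mM and 3.34, 3.12 and 3.12 at 3.5 mM. Groups at 0 and 0.35 mM did not overlap, and the change was 1.31 (SE 0.485, adjusted p = 0.11), so that no comparison of Dusp6 with a single dose passed. Its F test call was lost in 17 of 25 omissions (adjusted p of up to 0.0953), with spike level as a term and with a replicate block. The block fit leaves out replicate 4 of 0 mM, which is 1 of those omissions. Without replicate 1 of 2.8 mM, whose 1.85 is the lowest Dusp6 signal of all arrays, the change at 2.8 mM moved from -0.53 to 0.28 and the adjusted p at 0.35 mM was 0.0295.

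Dusp10 and Dusp16 act on JNK and p38 rather than ERK. Dusp10 was near the array median, with untreated signals of 0.20, 0.90, -0.07 and 0.87 and signals of -0.07, -0.15 and -0.12 at 0.14 mM. From 0.35 to 2.1 mM its arrays lay between -0.42 and 0.48, at 2.8 mM they were 0.92, 0.91 and 1.05, and at 3.5 mM they were 0.42, 0.23 and 0.43. The 2.8 mM arrays stood above all others, although replicates 2 and 4 of 0 mM came close. From 0.14 mM, where Dusp10 had its lowest dose mean, the change to 2.8 mM was 1.07 (SE 0.226, adjusted p = 0.0043), kept in all 25 omissions. The change from 0 to 2.8 mM was 0.48 (SE 0.212, adjusted p = 0.149).

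Dusp16 had untreated signals of 3.22, 3.50, 2.56 and 3.30, and its arrays from 0.14 to 2.8 mM lay between 2.60 and 3.97. At 3.5 mM they were 1.82, 1.93 and 2.12, below every other array. The change from 0 mM was -1.19, or 2.27-fold lower (SE 0.297, adjusted p = 0.0149), and -1.81 with spike level as a term (adjusted p = 0.0141). Leaving out replicate 1 of 3.5 mM took the adjusted p to 0.0584.

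Spry2 had signals between -0.66 and -0.09 on all 25 arrays, and its F test gave an adjusted p of 0.43. This inhibitor of receptor signalling was thus below the middle probe set on every array, and no detection calls were used. Of its relatives in the list of other ERK feedback genes, Spry1, Spry3 and Spry4 were not called by the F test either.

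Etv5, the ERK-dependent transcription factor, was below its untreated level at each dose by its brightest probe set. The change at 0.14 mM was not called (-0.51, adjusted p = 0.504). Untreated signals were 3.22, 3.32, 2.92 and 3.16, and 2.40, 2.82 and 2.71 were measured at 0.14 mM. The next doses gave 1.87, 1.28 and 1.49 (0.35 mM), 2.43, 2.17 and 1.70 (0.7 mM) and 1.75, 1.93 and 1.63 (1.4 mM). The highest gave 1.58, 1.30 and 1.18 (2.1 mM), 2.08, 1.34 and 1.33 (2.8 mM) and 1.83, 1.90 and 2.47 (3.5 mM). Every treated array, those at 0.14 mM included, lay below every untreated one.

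Changes of Etv5 from 0 mM were -1.61 at 0.35 mM (adjusted p = 0.00235), -1.05 at 0.7 mM (0.0451), -1.38 at 1.4 mM (0.000883), -1.80 at 2.1 mM (5.32e-05), -1.57 at 2.8 mM (0.000164) and -1.09 at 3.5 mM (0.0019), each with an SE of 0.207. All but that at 0.7 mM were kept in every omission of an array, and the latter was lost in 18 of 25, among them replicates 1, 2 and 4 of 0 mM and 2 and 3 of 0.7 mM (adjusted p of up to 0.268). Within the low spike level the change at 0.35 mM was -1.58 (adjusted p = 0.00272), and with spike level as a term it was -1.49 (0.0111). The same term ended the other calls of Etv5. It left changes of -0.94 at 0.7 mM (adjusted p = 0.117) and of -1.04 at 1.4 mM, -1.46 at 2.1 mM, -1.23 at 2.8 mM and -0.75 at 3.5 mM, with adjusted p of 0.415, 0.0863, 0.0748 and 0.15.

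**Figure D2:**
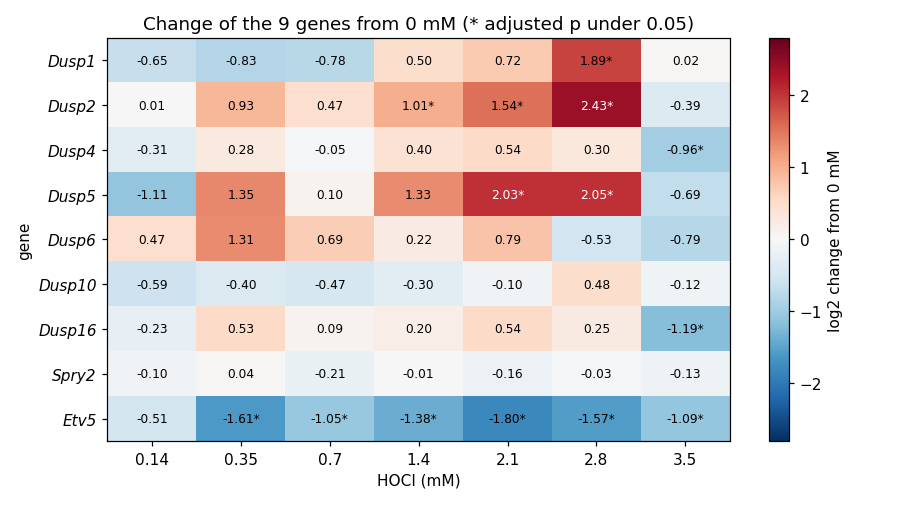
Log2 change of each of the 9 genes (rows) at each HOCl dose (columns, in mM) from 0 mM, printed in each cell and shown in red for higher and blue for lower. Asterisks mark an adjusted p under 0.05, and the 3.5 mM column holds falls of Dusp4 (-0.96), Dusp16 (-1.19) and Etv5 (-1.09) and no rise.

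RNA was measured in bulk, so that fewer living cells of a kind and less RNA per cell cannot be told apart at any dose. The median change of the 9 genes from 0 mM was -0.31, 0.28, -0.05, 0.22, 0.54, 0.30 and -0.69 from the lowest dose to the highest, and that over all probe sets was 0.02 to 0.08. These medians cover genes that differ in sign and show no steady course with dose. Between 2.8 and 3.5 mM the median of the 9 genes was -1.27, against 0.04 over all probe sets.

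The steps between neighbouring doses show where the pattern changes. From 0.14 to 0.35 mM Dusp5 was higher by 2.46 (SE 0.671, adjusted p = 0.0476) and Etv5 was lower, with a difference of -1.09 (SE 0.221, adjusted p = 0.015), so 1 gene was called each way, against 1.1% and 2.27% of probe sets. The Dusp5 call was lost in 15 of 25 omissions, all 6 arrays of both doses among them (adjusted p of up to 0.158), and that of Etv5 in 3 of 25, without replicate 2 or 3 of 0.14 mM or replicate 2 of 0.35 mM (up to 0.0836). From 0.35 to 0.7, 0.7 to 1.4 and 1.4 to 2.1 mM limma called 0 of the 9 genes and 0% of all probe sets. In turn 2, 0 and 0 of the 9 had an unadjusted p under 0.05, as did 2990, 4025 and 1343 of all probe sets. From 2.1 to 2.8 mM limma called 0 of the 9 genes and 0.0244% of probe sets, with 3 of the 9, Dusp2, Dusp6 and Dusp10, at an unadjusted p under 0.05. Over all probe sets 2638 were at that level.

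From 2.8 to 3.5 mM 4 of the 9 genes were lower, against 5.66% of all probe sets. In either direction 7 of the 9 had an unadjusted p under 0.05, as did 10333 of all probe sets. Dusp2 fell by 2.82 on the log2 scale (SE 0.304, adjusted p = 1.37e-05), Dusp5 by 2.74 (SE 0.671, 0.0111), Dusp16 by 1.43 (SE 0.318, 0.00593) and Dusp4 by 1.27 (SE 0.237, 0.00177). The groups did not overlap for these 4 genes, nor for Dusp1 and Dusp10, which were not called. The share of all probe sets without overlap was not counted. The calls of Dusp2, Dusp4 and Dusp16 were kept in all 25 omissions, and that of Dusp5 was lost without replicate 2 or 3 of 2.8 mM (adjusted p of up to 0.0616). Dusp1 differed by -1.87 (adjusted p = 0.0699) and Dusp10 by -0.60 (adjusted p = 0.1). All 6 arrays of this step are at the high spike level, so the step lies within 1 level of that measure. Etv5 differed by 0.48 in the other direction, with overlapping groups and an adjusted p of 0.191.

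Since the untreated arrays were divided for Dusp1, Dusp5 and Dusp10, each dose from 0.35 mM was also set against 0.14 mM. This reference was chosen with earlier results of these data known. Its mean is the lowest of all doses for Dusp5 (1.22) and Dusp10 (-0.11), so rises of these genes are largest against it. At 0.7 mM limma called 0 of the 9 genes and 0.0111% of probe sets. There 1 of the 9, Etv5, had an unadjusted p under 0.05, as did 2337 of all probe sets. At 1.4 mM Dusp5 was higher and Etv5 lower (backgrounds 4.49% and 2.62%), the latter with a difference of -0.87 (adjusted p = 0.0209) in a call lost without 4 of the 25 arrays, which were replicates 2 and 3 of 0.14 mM and 1 and 3 of 1.4 mM (up to 0.0775). At 2.1 mM 3 genes, Dusp2, Dusp4 and Dusp5, were higher (7.16%) and Etv5 was lower (5.04%). At 2.8 mM 4 genes, Dusp1, Dusp2, Dusp5 and Dusp10, were higher (6.33%) and Etv5 was lower (5.09%), with a difference of -1.06 (adjusted p = 0.00393). At 3.5 mM limma called 0 of the 9 genes and 10.9% of probe sets. An unadjusted p under 0.05 was found for 5 of the 9 and for 11493 of all probe sets. Comparisons with 0.14 mM share its 3 arrays, as those with 0 mM share the 4 untreated ones. The arrays of 0.14 mM are all at the low spike level and those from 1.4 mM up at the high one. Dose and spike level are thus tied in these comparisons as well, and spike level was not a term in any of them.

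Other probe sets bear on 4 of the genes. For Etv5 a further probe set was also lower at 0.35 mM (-1.15, SE 0.186, adjusted p = 0.00486), 1.4 mM (-0.75, 0.0191), 2.1 mM (-1.10, 0.000987) and 2.8 mM (-0.73, 0.0153). It was not called at 0.7 mM (-0.73, 0.163) or, with overlapping groups, at 3.5 mM (-0.40, 0.188), and it correlated with the brightest one at r = 0.854 over 25 arrays. The third Etv5 probe set was not called at any dose (r = 0.409), so the Etv5 calls at 0.7 and 3.5 mM rest on 1 of 3 probe sets. So do all Etv5 calls against 0.14 mM. There the further probe set differed by -0.50 at 0.35 mM (adjusted p = 0.206) and -0.10 at 1.4 mM (0.804). It differed by -0.45 at 2.1 mM (0.15) and -0.08 at 2.8 mM (0.847). The dim second probe set of Dusp16 followed the brighter one (r = 0.839) but was not called. The second probe sets of Dusp10 (r = 0.0992) and Spry2 (r = -0.128), both below the array median, did not track the first and were not called. The Dusp10 changes thus rest on 1 of its 2 probe sets.

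**Figure D3:**
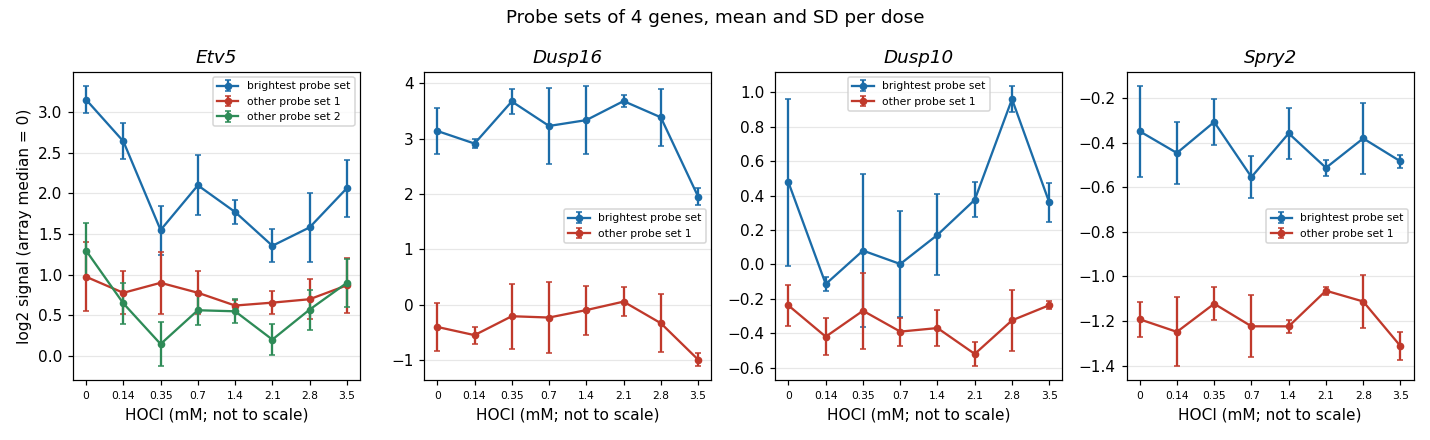
Mean log2 signal (vertical axis, array median 0) of every probe set of Etv5, Dusp16, Dusp10 and Spry2 by HOCl dose in mM (horizontal axis, not to scale), with bars of 1 SD over 4 arrays at 0 mM and 3 at other doses. The blue line is the brightest probe set, and 1 of the 2 other Etv5 probe sets shows the same descent to 0.35 mM, from 1.30 to 0.14.

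Over the 25 arrays, which share doses and the split in spike level, the genes followed each other to different degrees. The closest pair was Dusp4 and Dusp16 (r = 0.932), followed by Dusp4 and Dusp5 (0.841). Dusp1 went most with Dusp10 (0.761). Etv5 ran against Dusp2 (-0.638) and Dusp5 (-0.631), and Dusp6 ran against Dusp1 (-0.463). Among all other genes those most like Dusp5 were Plk2 (r = 0.962), Plk3 (0.946) and Coq10b (0.94), and those most like Dusp1 were Errfi1 (0.907), Maff (0.898) and Oser1 (0.894). Cflar was the closest to both Dusp4 (0.965) and Dusp16 (0.939), Prpf38b to Dusp2 (0.923), Znfx1 to Dusp6 (0.917), Srp54b to Dusp10 (0.884), Slc25a23 to Etv5 (0.932) and Tgm2 to Spry2 (0.787). These coefficients are descriptions over 25 arrays and were not tested.

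The rest of the pathway was read from lists of its genes, whose counts by the F test stand beside the 24.7% of all probe sets. Those counts also take only the brightest probe set of each gene. Other MAP kinase phosphatases (Dusp7, Dusp8 and Dusp9) had 2 of 3 changed by the F test. Dusp7, which acts on ERK in the cytoplasm, was lower at 2.1 mM (-0.77, SE 0.217, adjusted p = 0.0225) and 2.8 mM (-0.97, adjusted p = 0.00665). Dusp9 was higher at 3.5 than at 2.8 mM, by a log2 difference of 0.30 (SE 0.0889, adjusted p = 0.0309), at signals of 0.13 to 0.18 close to the array median. Of 11 atypical dual specificity phosphatases, which lack the MAP kinase binding domain, 2 changed. Dusp22 was lower at 0.35 mM (-0.97, SE 0.224, adjusted p = 0.0167) and 2.1 mM (-0.98, 0.00682), and Dusp19 was higher at 3.5 than at 2.8 mM (0.84, SE 0.191, 0.00682).

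Of 11 measured genes in the list of other ERK feedback genes 7 changed. Phlda1, a gene induced by growth factors, had signals of 2.43, 3.78, 1.82 and 3.57 at 0 mM, 5.95, 5.61 and 5.63 at 0.35 mM and 3.43, 3.15 and 3.39 at 3.5 mM. The change at 0.35 mM was 2.83 (SE 0.722, adjusted p = 0.0253). Errfi1, whose product inhibits the EGF receptor family, was higher at 2.8 mM (2.01, SE 0.586, adjusted p = 0.0304) and fell by 2.47 on the log2 scale from there to 3.5 mM (SE 0.626, adjusted p = 0.0135). The Spred genes encode membrane inhibitors that act on Ras and Raf. Spred2 was lower at 2.8 mM (-1.02, SE 0.171, adjusted p = 0.000922) and at 3.5 mM (-1.68, adjusted p = 3.9e-06), where its signals of 2.47, 2.33 and 2.69 were below all others. Spred1 was lower at the same doses (-0.57, adjusted p = 0.00753, and -0.73, adjusted p = 0.00113).

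In the ERK cascade, 10 of the 18 genes measured of 25 listed changed, and the others were not analysed here. Nras, a Ras isoform, was higher at 0.35 mM (0.92, SE 0.193, adjusted p = 0.0113) and from 1.4 to 2.8 mM, with a peak at 2.1 mM (1.26, adjusted p = 0.000514). Sos1, an exchange factor that activates Ras, was lower at 0.35 mM (-1.27, SE 0.235, adjusted p = 0.00738) and also at 2.8 and 3.5 mM. Elk4, a ternary complex factor that works with serum response factor, was called against 0 mM at 3.5 mM and at no other dose (-1.73, SE 0.129, adjusted p = 6.41e-08). Elk3 of the same family was lower at 2.8 mM (-0.83, SE 0.209, adjusted p = 0.014).

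Of 25 measured genes of the JNK and p38 cascades 11 changed. The kinases Map3k1, Map3k2 and Map3k5 were lower at 2.8 mM, with differences of -1.37, -1.33 and -1.60 (adjusted p = 0.000803, 0.000803 and 0.000284). Map3k7, the kinase TAK1, was higher at 1.4, 2.1 and 2.8 mM, by 1.19 at 2.1 mM (SE 0.185, adjusted p = 0.000563). Zfp36, an mRNA decay factor regulated through p38, was lower at 3.5 than at 2.8 mM (-1.28, SE 0.365, adjusted p = 0.0265). Jun, the AP-1 subunit that JNK phosphorylates, did not pass the F test (adjusted p = 0.198) and was lower at 3.5 mM than at 0 mM (-1.02, SE 0.313, adjusted p = 0.0447).

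In the list of inputs to ERK in macrophages 2 of 11 genes changed. The receptor gene Csf1r did not pass the F test (adjusted p = 0.278). Cbl, the ubiquitin ligase that ends receptor signalling, was lower at 3.5 mM (-2.06, SE 0.163, adjusted p = 1.39e-07). Ptpn6, a tyrosine phosphatase of blood cells, was lower at 2.8 mM (-1.99, SE 0.297, adjusted p = 0.00039) and at 3.5 mM differed from 0 mM by 0.01.

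Of 13 immediate early genes downstream of ERK 6 changed. Fosl1, an AP-1 subunit, was higher at 2.8 mM (1.96, SE 0.375, adjusted p = 0.0024) and fell by 3.14 on the log2 scale to 3.5 mM (SE 0.401, adjusted p = 6.53e-05). Plaur, the urokinase receptor, was also higher at 2.8 mM (2.25, SE 0.477, adjusted p = 0.00475) and fell by 2.36 to 3.5 mM (SE 0.51, adjusted p = 0.00495). Its largest change from 0 mM was at 2.1 mM (2.48), whereas that of Fosl1 was at 2.8 mM. The cyclin gene Ccnd1 was lower at 3.5 than at 0.14 mM (-1.05, SE 0.268, adjusted p = 0.0152). Fos was instead higher at the top dose, with signals of 6.09, 5.91 and 5.99 at 3.5 mM against 4.06, 4.32, 3.84 and 4.22 at 0 mM, a change of 1.89 (SE 0.541, adjusted p = 0.0316). At 2.8 mM replicate 1 of Fos read 6.09 and the other arrays 2.60 and 2.44. Egr1 did not pass the F test (adjusted p = 0.124), and its untreated signals of 3.53, 6.60, 4.22 and 6.38 showed the same high and low pairs of arrays as Dusp1 and Dusp5.

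**Figure D4:**
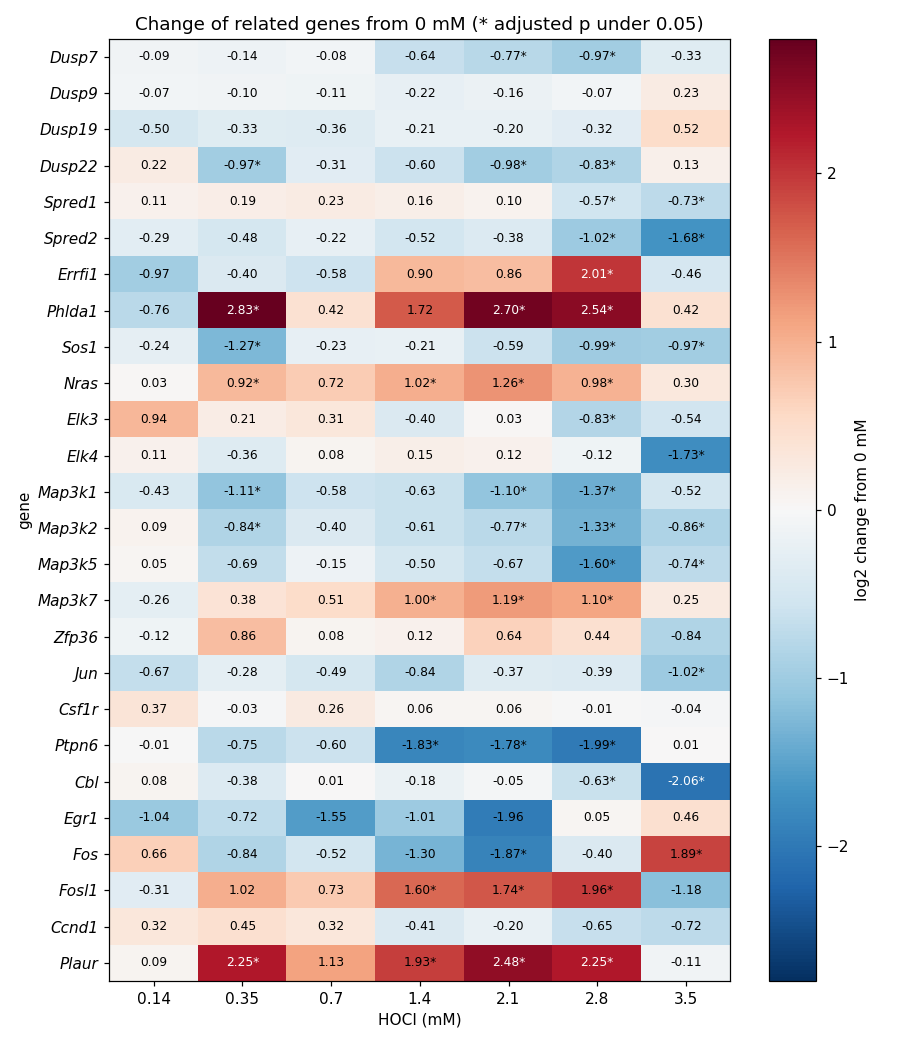
Log2 change from 0 mM of 26 genes of the related lists (rows) at each HOCl dose in mM (columns), in red for higher and blue for lower, with asterisks at an adjusted p under 0.05. Phlda1, Fosl1, Errfi1 and Plaur are higher at 2.8 mM (1.96 to 2.54), whereas Spred2, Elk4 and Cbl have their lowest values at 3.5 mM.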

How the data were processed

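RNA of 25 cultures was hybridized to Affymetrix Mouse Genome 430 2.0 arrays, and groups were taken from the sample titles. Deposited were log2 signals of probe sets, for which the authors used RMA (per the submitters' processing notes) after reading intensities with Array Assist (per the labels' design text). No version or setting is given in the sources used here. Each array has a median of 0, and its quartiles differ from those of other arrays, so no quantile normalization over all arrays is visible. Array files before normalization and detection calls were not used here.

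Of 45101 probe sets 64 controls were left out of the tests, and 45037 were tested without a filter on signal. A gene was shown by the brightest of its probe sets with 1 symbol (34945 such probe sets, against 932 with several symbols and 9160 with none). Using limma 3.58.1 (R 4.3.3), all arrays were fitted with 1 mean for each dose (17 residual and 2.99 prior degrees of freedom), with two-sided moderated tests, an F test over 7 doses, and Benjamini-Hochberg adjustment within each comparison at a threshold of 0.05. The p-values rest on the spread between arrays pooled over all doses.

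Named genes outside the 9 are, from each list, up to 4 with the lowest F test p among those called, a few set genes (Egr1, Fos, Jun, Zfp36 and Csf1r among them) whatever their result, and the 3 genes of highest correlation with each member, of which the first or all are printed. The members and lists were chosen with earlier results of these data known. Alternatives were quantile normalization, another variance prior, fits of the 2 doses compared, array weights, a replicate block, spike level as a term or the low spike level only, the most variable probe set per gene, dim probe sets left out, and leaving out each array. The fit was tested on simulated data.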

Additional observations from a re-analysis of the deposited data

How the results depend on the processing

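Of the 9 genes, the number called against 0 mM changed under several alternatives. At 0.35 mM it was 1, and 2 with quantile normalization, in a fit of the 2 doses alone, within the low spike level and with dim probe sets left out, the added gene being Dusp2 each time. At 0.7 mM it was 1 (Etv5), and 0 with a trended and robust variance prior, in a fit of the 2 doses alone, with a replicate block, with spike level as a term and within the low spike level. At 1.4 mM it was 2, and 1 in a fit of the 2 doses alone and with the replicate block. At 2.8 mM it was 4, and 2 in the fit of the 2 doses alone. With spike level as a term 0 of the 9 were called at 1.4, 2.1 and 2.8 mM. That term is estimated from 0.35 and 0.7 mM, the doses with arrays of both levels. Against 0.14 mM the count at 3.5 mM was 0, and 2 with quantile normalization (Dusp4 and Dusp16) and 1 with dim probe sets left out. The shares of all probe sets called under these alternatives are not given. Whether the array as a whole lost or gained calls alongside the 9 genes is therefore not shown.

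The planned array weights did not converge. Gene-by-gene array weights, added after seeing the data, gave 6 calls at 0.14 mM, 5 at 0.35 mM, 5 at 0.7 mM and 6 at 2.1 mM against 0 mM, where they called 18.5%, 24.7%, 17.6% and 38.7% of all probe sets. They gave 5, 3, 2 and 7 at the steps to 0.35, 0.7, 2.8 and 3.5 mM (16.6%, 3.52%, 4.03% and 24.5%), and 4, 7 and 5 at 1.4, 2.1 and 3.5 mM against 0.14 mM (21.8%, 45% and 23.2%). Under them Dusp1 at 2.8 mM against 0 mM was no longer called (0.78, adjusted p = 0.172), and Dusp5 at 0.7 mM reversed from 0.10 to -1.39. The weights at 0 mM were 0.174, 1.4, 0.393 and 2.93 for replicates 1 to 4. Replicates 2 and 4, the high pair for Dusp1 and Dusp5, thus counted most in that mean. At 0.7 mM replicate 1, the lowest array of its dose for Dusp5, counted most (2.58). The cause of the changed counts was not tested.

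Leaving out each array in turn gave 6 to 8 genes by the F test (8 in full), and against 0 mM 1 to 2 at 0.35 mM, 0 to 1 at 0.7 mM, 1 to 2 at 1.4 mM, 2 to 3 at 2.1 mM, 2 to 4 at 2.8 mM and 2 to 3 at 3.5 mM. Against 0.14 mM it gave 0 to 2 at 0.35 mM, 0 to 4 at 1.4 mM, 3 to 4 at 2.1 mM, 4 to 5 at 2.8 mM and 0 to 2 at 3.5 mM, and 3 to 5 for the step from 2.8 to 3.5 mM. The remaining comparisons stayed at 0. Shares of all probe sets called in these omissions are not given either.

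The residuals of same-numbered arrays correlated above 0.1 in 19 of 84 pairs, with a median of -0.0256 and a range of -0.698 to 0.555. Arrays of different numbers were not compared in this way, so whether replicate numbers pair the arrays was not tested. With the replicate block the call of Dusp5 from 0.14 to 0.35 mM was lost (adjusted p = 0.0582), which left 1 call there, as were those of Dusp2 at 1.4 mM (0.0562) and Etv5 at 0.7 mM (0.17). That fit leaves out replicate 4 of 0 mM, and the calls of Dusp2 and Etv5 were also lost by that omission alone. Probe sets near the array median, such as those of Spry2, limit what a change there can show.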

Other observations

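Within 3 of the doses single arrays differed from their replicates in several of the 9 genes at once. Replicate 3 of 0.7 mM read 3.76 for Dusp5, 3.97 for Dusp16 and 5.30 for Dusp6, above both other arrays of that dose in each, and it is the array of that dose at the high spike level. Replicate 3 of 0.35 mM, also at the high level, read 3.62 for Dusp5 and 5.39 for Dusp6, between the other arrays of its dose. Replicate 2 of 1.4 mM read 2.09 for Dusp5, 1.68 for Dusp2 and 2.70 for Dusp16, below both other arrays. Replicate 1 of 2.8 mM read 1.85 for Dusp6 and 2.80 for Dusp16, below its replicates, and 5.47 for Dusp1 and 4.12 for Dusp2, above them.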
